A study of Mus musculus with 9 samples.

Results

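Complement genes were followed through single-cell libraries of 9 mouse kidneys. The members were 9 genes chosen by name, C1qa, C1qb, C1qc, C3, C4b, Cfb, Cfi, Cd55 and C3ar1, out of 32427 gene rows in the files, and each had a row in all 9 libraries. All mice were male C57BL/6, and each group held 3 mice that were 6 weeks old when the adaptation period began. Control mice received saline. AKI-CKD mice (cisplatin alone) received 4 weekly intraperitoneal injections of cisplatin, a platinum drug that damages kidney tubules, at 8 mg/kg. AKI-CKD + EGT mice (the EGT group) received the same cisplatin and also ergothioneine (EGT), a thiol antioxidant, at 0.5 mg/mL in drinking water, or about 100 mg/kg/day, starting 3 days before the cisplatin. Kidneys were taken after 8 weeks. A mouse was the replicate throughout. The comparison of AKI-CKD with Control asked how the genes differed after cisplatin, and that of AKI-CKD + EGT with AKI-CKD asked how they differed when EGT was added. Both comparisons used the same 3 AKI-CKD mice.

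Complement is a set of plasma and membrane proteins that tag cells for removal and open pores in membranes. The classical pathway starts with C1q, a complex of the chains encoded by C1qa, C1qb and C1qc, and is known as a product of tissue macrophages. C4b and C3 encode the thioester proteins that are cut and bound to surfaces, and Cfb encodes factor B, which joins C3b in the alternative pathway convertase. Cfi encodes factor I, a protease that inactivates C3b and C4b, while Cd55 encodes a membrane protein that takes convertases apart. C3ar1 encodes the receptor for C3a, the small fragment released when C3 is cut. In the kidney, tubule cells can make C3 and factor B themselves, besides what the liver delivers through the blood.

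The upstream sequence of members whose levels followed a cell class can be read beside those levels, so 4 promoters are shown: those of C1qb, C1qc and C3ar1, which were highest in macrophages, and of C3, which was not. They are the 250 bases before the start of the gene, from RefSeq on build GRCm38.p6, and 5 of the 9 members had an entry in that table (these 4 and Cd55). Both strands were searched for GAGGAA (the core bound by PU.1, a factor of myeloid cells), TGACTCA (an AP-1 motif) and TTGCNNAA (a C/EBP type motif). Capitals mark the matches, all 4 genes lie on the minus strand, and the sequences read 5′ to 3′ along the gene.
C1qb, chr4:136886201-136886450: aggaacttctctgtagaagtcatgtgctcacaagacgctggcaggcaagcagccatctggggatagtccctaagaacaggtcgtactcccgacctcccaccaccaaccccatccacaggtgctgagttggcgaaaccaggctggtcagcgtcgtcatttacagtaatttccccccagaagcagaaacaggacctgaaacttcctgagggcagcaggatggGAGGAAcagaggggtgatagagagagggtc
C1qc, chr4:136892915-136893164: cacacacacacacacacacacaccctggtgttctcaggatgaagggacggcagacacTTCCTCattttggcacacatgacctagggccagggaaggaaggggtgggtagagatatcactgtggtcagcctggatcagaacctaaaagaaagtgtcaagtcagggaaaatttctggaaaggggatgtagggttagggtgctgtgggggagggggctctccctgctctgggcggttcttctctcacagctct
C3ar1, chr6:122856158-122856407: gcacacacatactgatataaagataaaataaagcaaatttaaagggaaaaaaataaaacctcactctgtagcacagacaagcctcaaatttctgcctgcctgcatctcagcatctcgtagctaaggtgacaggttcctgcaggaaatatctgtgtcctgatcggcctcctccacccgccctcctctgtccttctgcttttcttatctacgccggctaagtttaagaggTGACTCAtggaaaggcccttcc
C3, chr17:57228137-57228386: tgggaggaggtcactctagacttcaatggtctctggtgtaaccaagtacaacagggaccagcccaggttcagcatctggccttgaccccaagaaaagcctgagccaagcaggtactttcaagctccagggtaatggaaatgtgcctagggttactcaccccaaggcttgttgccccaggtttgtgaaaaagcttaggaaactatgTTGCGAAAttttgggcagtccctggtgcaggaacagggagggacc
GAGGAA lay 30 to 25 bases before the start of C1qb, and on the other strand 193 to 188 bases before that of C1qc. It occurs in 23.3% of the 32851 promoters of the table. TGACTCA lay 22 to 16 bases before C3ar1 and occurs in 4.46% of promoters. TTGCNNAA lay 45 to 38 bases before C3 and occurs in 9.56%. A match describes the letters and shows no binding.

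The deposited matrices held 70106161 to 101525691 UMIs (unique molecular identifiers, each counting 1 captured transcript) per library. Of 216680 barcodes, 196925 cells were kept, with a median of 2714 UMIs. Clustering without the complement genes gave 13 classes named from markers, which covered 96.6% of the kept cells. They are named X-like cells, shortened here to X: 155151 proximal tubule (PT) cells, 12571 distal convoluted tubule (DCT) cells, 7856 loop of Henle (LOH) cells, 2736 and 1743 principal and intercalated collecting duct (CD-PC and CD-IC) cells, 701 thin limb cells, 1097 podocytes, 3678 endothelial cells, 727 stromal cells, 1697 macrophages, 946 T cells, 740 B cells and 535 cycling cells. The stromal class was led by the contractile genes Acta2, Myl9 and Tagln. No cluster could be named from the injured tubule markers. Of the unnamed cells, 5042 were led by haemoglobin genes and 1700 formed a cluster that carried genes of both PT cells and macrophages. Levels are given as CPM, the UMIs of a gene scaled to a total of 1000000 UMIs of a class in a mouse, and are compared only within a gene. Class levels and shares of cells with a UMI are means of the 9 mice, and values of thin limb, stromal, B or podocyte cells split by a UMI of a member, and of the unnamed cluster split by C1q, are pooled over mice.

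Most UMIs of 4 members came from macrophages, and most UMIs of the other 5 from PT cells, the largest class. Of all UMIs of C1qa, C1qb, C1qc and C3ar1, 80.6%, 81.8%, 81.6% and 82.4% came from the macrophages. These cells were 0.862% of those kept. PT cells held 62.6% of the UMIs of C3, 82.6% of C4b, 88.3% of Cfb, 87.7% of Cfi and 77.4% of Cd55. They were 78.8% of the kept cells, which is not their share of all UMIs, as their median depth was 2865 UMIs against 2714 in all kept cells. In the pooled sums C4b was at 7.17 CPM in PT cells and 7.15 CPM in all kept cells. The heat map of mean levels by class shows the macrophage block of C1q and C3ar1, C3 in thin limb and stromal cells, and Cd55 in B cells and podocytes.

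**Figure D1:**
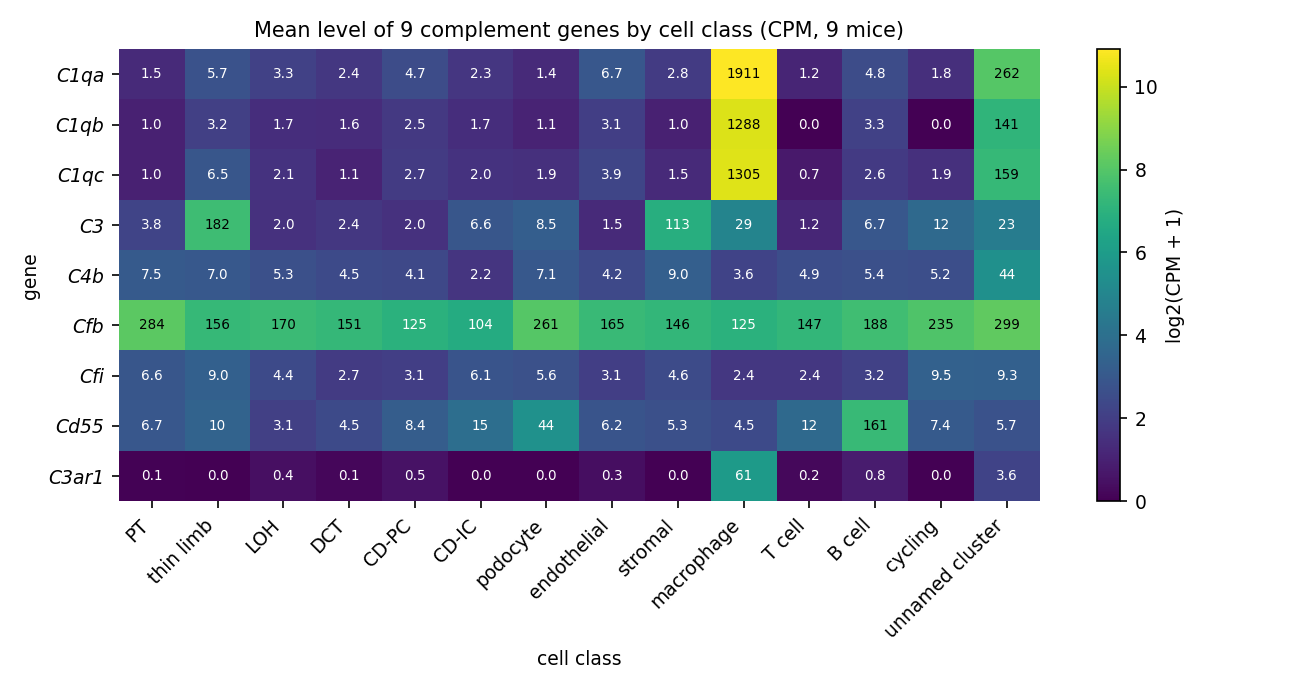
Mean level of 9 complement genes (rows) in 13 cell classes and in the unnamed cluster with macrophage and PT genes (columns), averaged over 9 mice. Colour gives log2(CPM + 1) and the printed numbers give CPM. C1qa, C1qb, C1qc and C3ar1 stand out in macrophages, C3 in thin limb and stromal cells, and Cd55 in B cells, while Cfb is above 100 CPM in every class.

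The C1q chains were highest in macrophages in 9 of 9 mice. C1qa was at 1911 CPM there, 284-fold over endothelial cells, the next class, at 6.72 CPM. C1qb was at 1288 CPM, beside 3.26 CPM in B cells, and C1qc at 1305 CPM, beside 6.49 CPM in thin limb cells. Both lower values rest on few UMIs: 3 of 9 mice had a C1qb UMI in B cells, and Control mouse 1 gave 10 of the C1qc UMIs of thin limb cells, where 5 mice had 0. For each of these 3 genes the ranges of the 9 mice did not overlap between macrophages and the next class, whereas nearly all lower neighbours in the order overlapped. A C1qa UMI was found in 62.3% of macrophages (median 2653 UMIs per cell) and in 0.281% of T cells (median 2335 UMIs), a class that should lack it. With every cell thinned to 1000 UMIs the shares were 56.2% and 0.230%. C1qb had 0 UMIs in 946 T cells, which allows up to 0.317% of cells with a UMI. In PT cells the macrophage markers had a median of 0.105% of their macrophage level, and C1qa, C1qb and C1qc stood at 0.0802%, 0.0827% and 0.0791% of theirs. The C1q UMIs of PT cells were thus not told apart from the background of other macrophage transcripts, and no test of expression there was made.

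Across the macrophage class the C1q genes had lower mean levels in AKI-CKD than in Control mice and higher ones with EGT. No difference passed the test, and the class also held cells without C1q that differed in other markers, described below. The direction between AKI-CKD and Control was reversed under other clusterings of the cells, given below. The level of C1qa was 1977, 1540 and 2567 CPM in Control mice 1, 2 and 3, 1323, 1556 and 1214 CPM in AKI-CKD mice and 3170, 1819 and 2032 CPM in AKI-CKD + EGT mice. AKI-CKD mouse 2 reached into the Control range, and all AKI-CKD + EGT mice lay above all AKI-CKD mice. The means were 2028 ± 515, 1364 ± 175 and 2340 ± 727 CPM (SD, n = 3). On the log2 scale AKI-CKD differed from Control by -0.45 ± 0.28 (SE, adjusted p = 0.675, edgeR's quasi-likelihood F test with Benjamini-Hochberg adjustment). AKI-CKD + EGT differed from AKI-CKD by 0.66 ± 0.28 (unadjusted p = 0.0297, adjusted p = 0.530, edgeR). The first was -0.23 without Control mouse 3 and the second 0.35 without AKI-CKD + EGT mouse 1.

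C1qb and C1qc encode the other chains of the complex and also had their lowest group mean in AKI-CKD mice, while Control was highest for them and the EGT group for C1qa. C1qb was at 971, 1083 and 2400 CPM in the Control mice, at 1020, 1078 and 867 CPM after cisplatin alone and at 2245, 960 and 968 CPM in the EGT group. Its higher means came from Control mouse 3 and AKI-CKD + EGT mouse 1. Without Control mouse 3 its log2 difference changed from -0.48 to 0.07, and without AKI-CKD + EGT mouse 1 the second difference changed from 0.38 to -0.18. C1qc was at 1192, 1284 and 2040 CPM in the Control mice, at 856, 1043 and 837 CPM after cisplatin alone and at 2124, 1222 and 1147 CPM in the EGT group. The AKI-CKD mice were lowest for C1qc on this scale, with log2 differences of -0.60 ± 0.30 (SE, adjusted p = 0.608) and 0.60 ± 0.30 (SE, adjusted p = 0.593) in edgeR. The first was -0.31 without Control mouse 3 and the second 0.23 without AKI-CKD + EGT mouse 1.

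The receptor gene C3ar1 was also highest in macrophages in 9 of 9 mice, at 61.0 CPM. The next class, B cells, had 1 C3ar1 UMI in 1 mouse and 0 in the other 8, so no fold is given. It had 0 UMIs in thin limb, CD-IC, podocyte, stromal and cycling cells. In stromal cells this allows up to 1.04 CPM. A C3ar1 UMI was found in 15.3% of macrophages, or 7.33% after thinning, and in 0.0507% of T cells. The level stood at 54.7, 46.4 and 61.1 CPM in the Control mice, at 19.7, 45.9 and 58.8 CPM after cisplatin alone and at 128, 57.0 and 77.4 CPM in the EGT group. AKI-CKD mouse 1 was the lowest and AKI-CKD + EGT mouse 1 the highest, and the groups overlapped. The log2 differences were -0.16 ± 0.37 (SE, adjusted p = 0.926) and 0.84 ± 0.36 (SE, unadjusted p = 0.0351, adjusted p = 0.541) in edgeR, and the second was 0.46 without AKI-CKD + EGT mouse 1.

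**Figure D2:**
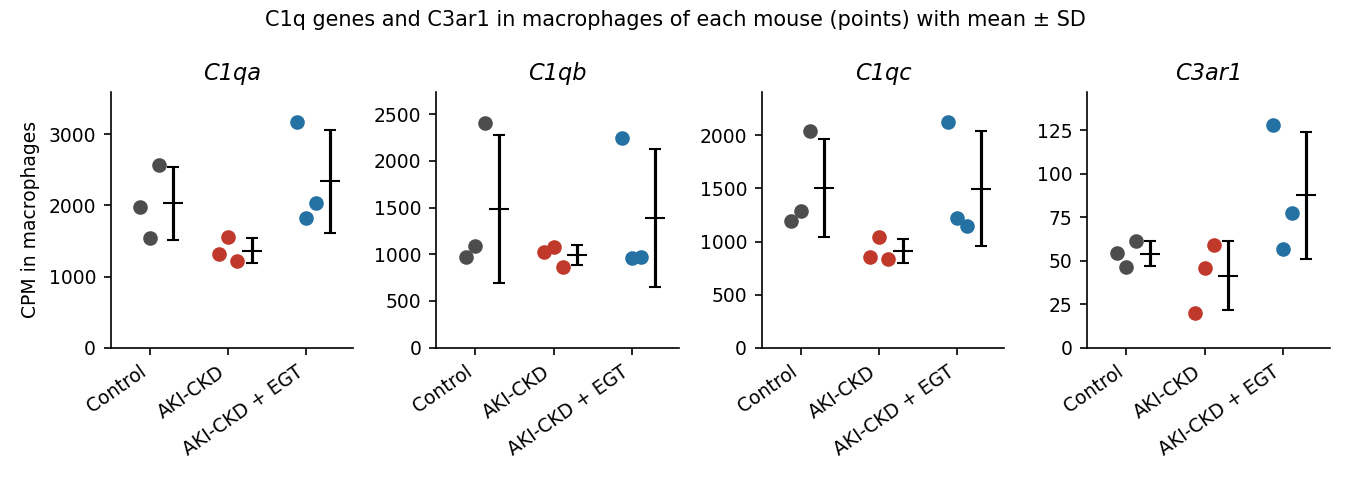
Levels of C1qa, C1qb, C1qc and C3ar1 in macrophages (CPM, linear axis from 0) by group, each point a mouse, with mean ± SD of 3 mice. The AKI-CKD mice lie in a narrow range for the C1q genes (1214 to 1556 CPM for C1qa). It reaches into the Control range for C1qa and into both other groups for C1qb. Single high mice set the means of Control and AKI-CKD + EGT for C1qb.

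Of the 6 members tested in macrophages, 0 were called in AKI-CKD against Control, where 0.0552% of 7245 genes were called, and 0 were called between the AKI-CKD + EGT and AKI-CKD mice, where 0% were called. At an unadjusted p under 0.05 there were 0 and 2 members in edgeR, beside 614 and 629 of all genes tested, and DESeq2 called 0 in both. On the scale of the test (TMM, which aligns most genes between libraries) 1 member did not overlap between the mice of AKI-CKD and Control, C3, and 14% of all genes did not. In AKI-CKD + EGT against AKI-CKD 1 member, C1qa, did not overlap, beside 14.4% of all genes. In plain CPM the median of all genes tested in macrophages differed by -0.12 and 0.13 on the log2 scale in the first and second comparison, and the fitted differences are relative to that shift.

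The share of the macrophage class with any C1q UMI was lowest in AKI-CKD mice. Whether this lay in the make-up of the class or in the C1q level of its cells was not tested. After thinning it was 67.6%, 64.8% and 75.4% in Control mice 1, 2 and 3, against 48.3%, 51.2% and 46.8% after cisplatin alone and 73.2%, 57.1% and 70.9% with EGT. All AKI-CKD mice lay below all mice of either other group. The means were 69.3% ± 5.49, 48.8% ± 2.24 and 67.1% ± 8.72 (SD, n = 3), against 72.9%, 49.95% and 68.9% without thinning. The exact two-sided permutation p was 0.1 for both comparisons, the smallest that 3 against 3 mice can give. The size of the share varied with the clustering and with the cells counted as macrophages, here without thinning. When the complement genes were allowed among the variable genes, the class grew to 2253 cells and the shares were 83.9%, 79.3% and 85.7%, with overlap. Without the Harmony correction the class shrank to 1132 cells, of which 99.4%, 98.0% and 98.8% had a C1q UMI, and the AKI-CKD mice lay below all Control mice but overlapped with the EGT group. With the 1700 unnamed cells counted in, the shares were 57.2%, 39.3% and 59.6%, and all AKI-CKD mice again lay below all mice of the other groups. In the first 2 of these settings C1qa, C1qb and C1qc were higher in AKI-CKD than in Control macrophages, by 0.21, 0.13 and 0.0077 with complement genes allowed and by 0.31, 0.30 and 0.15 without Harmony on the log2 scale. C3ar1 was then also higher, by 0.20 and 0.59. With the unnamed cells counted in, the differences were -0.39, -0.41 and -0.52 for the C1q genes and -0.19 for C3ar1. The direction between AKI-CKD and Control macrophages thus changed when the cells were clustered in these other ways, and not when the unnamed cells were added.

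Macrophages with and without a C1q UMI differed in other complement genes. The 1106 cells with one had a median of 2396 UMIs and the 591 cells without one had a median of 3367 UMIs, and the median was higher without C1q in 8 of 9 mice. C3ar1 was at 101 ± 49.1 CPM in cells with C1q and at 5.79 ± 4.49 CPM in those without (SD, n = 9), higher in 9 of 9 mice. Ms4a7 and Adgre1 (F4/80), markers of resident macrophages, were at 362 and 94.96 CPM in cells with C1q and at 2.82 and 11.4 CPM in those without, again higher in 9 of 9 mice. Cells without C1q carried more Cfp, which encodes properdin, the stabilizer of the alternative convertase, at 87.5 ± 17.8 against 27.6 ± 19.7 CPM in 9 of 9 mice. They also carried more Itgam, a chain of complement receptor 3, at 60.2 against 20.9 CPM in 8 of 9 mice, and more Lyz2 in 7 of 9. C3 was at 48.0 CPM in cells without C1q and 18.1 CPM in cells with it, higher in 6 of 9 mice. The cells were split by a member, so these values carry no test. The class was thus mixed in these markers, and cells without C1q had little of the resident macrophage markers. The part of this mix in the group differences of the class was not tested.

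Among the macrophages with a C1q UMI, the summed level of the 3 chains was 7239 ± 2429 CPM in Control, 7855 ± 515 CPM in AKI-CKD and 8481 ± 3597 CPM in AKI-CKD + EGT mice (SD, n = 3). These ranges overlapped, with 5577 to 10027 CPM in Control and 7315 to 8342 CPM in AKI-CKD. The cells were chosen by a UMI of the same genes, so these values do not give the level per macrophage and no comparison of groups is drawn from them.

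**Figure D3:**
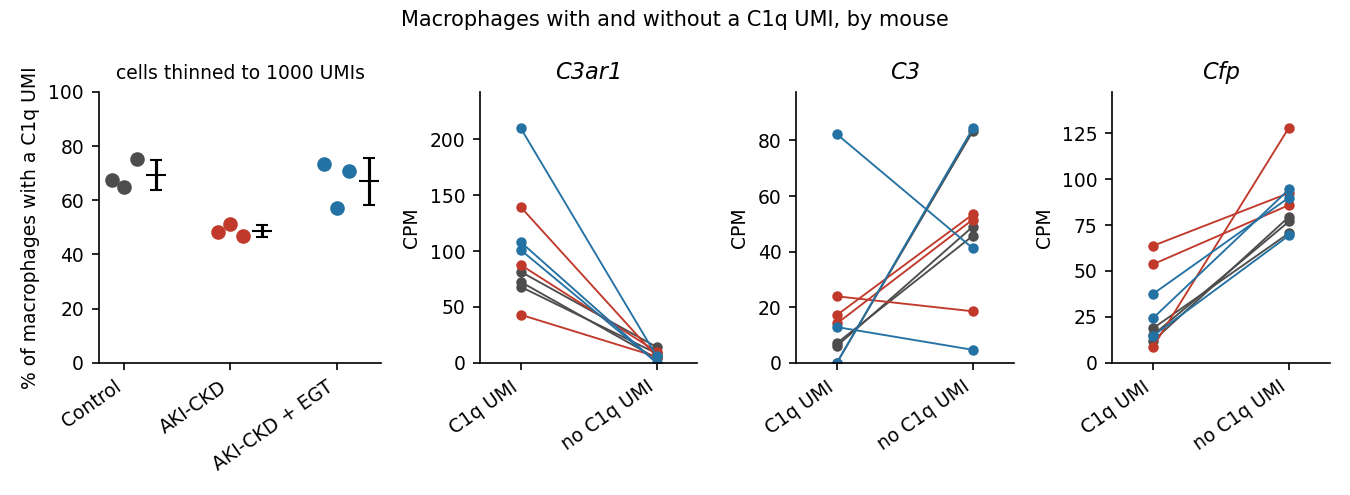
The left panel gives the share of macrophages with a C1q UMI (%, cells thinned to 1000 UMIs) by group, each point a mouse, with mean ± SD. The other panels join the levels (CPM) of a gene in cells with and without a C1q UMI by a line for each mouse: C3ar1 falls and Cfp rises from left to right in 9 of 9 mice.

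Summed over all kept cells, C1q and C3ar1 had their lowest group mean in AKI-CKD mice and their highest in AKI-CKD + EGT mice. C1qa was at 30.9, 12.9 and 16.4 CPM in the Control mice, at 5.27, 22.0 and 10.5 CPM after cisplatin alone and at 26.6, 28.1 and 29.4 CPM in the EGT group. Its log2 differences were -0.61 ± 0.41 (SE, adjusted p = 0.696) and 0.95 ± 0.41 (SE, unadjusted p = 0.0420, adjusted p = 0.382) in edgeR. They moved to -0.24 and 0.57 without AKI-CKD mouse 1 and to -1.17 and 1.51 without AKI-CKD mouse 2, and the first was -0.23 without Control mouse 1. In such sums fewer macrophages and less RNA per macrophage cannot be told apart. Macrophages were 0.920% ± 0.288 of the kept cells of Control mice, 0.660% ± 0.358 of those of AKI-CKD mice and 1.04% ± 0.295 in the EGT group (SD, n = 3), with exact two-sided permutation p = 0.4 and p = 0.3. AKI-CKD mouse 1 had the lowest share, 0.376%, and the lowest C1qa level, and AKI-CKD mouse 2 had 1.06% and the highest level of its group. The part of the cell number in the level was not tested.

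Over all kept cells 0 of 9 members were called in AKI-CKD against Control, beside 0.0199% of 20144 genes, and 0 of 9 in AKI-CKD + EGT against AKI-CKD, beside 0.00496%. At an unadjusted p under 0.05 edgeR gave 1 and 3 members, beside 1616 and 2556 of all genes tested, and DESeq2 called 0. On the TMM scale 1 member, Cfi, did not overlap between AKI-CKD and Control mice, where 15.8% of all genes did not. In the second comparison 4 members did not overlap, C1qa and C3ar1 higher and C3 and Cfb lower, beside 18.3% of all genes. The make-up of the kept cells moved with this comparison: PT cells were 88.2%, 81.6% and 89.3% of them in AKI-CKD mice, and 82.0%, 70.9% and 52.8% with EGT. AKI-CKD + EGT mouse 3 stood apart, with 18.0% DCT and 11.1% LOH cells, and without it the fitted second differences were -0.43 for C3 and -0.24 for Cfb. The part of this make-up in the all-cell differences was otherwise not tested. The median mitochondrial share of UMIs per kept cell also moved, from 2.82%, 2.31% and 1.67% in AKI-CKD mice to 3.35%, 4.87% and 7.64% with EGT. The plain CPM median of all genes was 0.22 higher on the log2 scale in the EGT group than in AKI-CKD mice, both over all kept cells and in PT cells, and 0.11 lower in AKI-CKD than in Control PT cells. In plain CPM, C3 and Cfb overlapped in that comparison and C1qc did not.

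In the all-cell sums AKI-CKD differed from Control on the log2 scale by -0.57 ± 0.37 for C1qb, -0.70 ± 0.40 for C1qc and -0.48 ± 0.57 for C3ar1 (SE, adjusted p of at least 0.656, edgeR). AKI-CKD + EGT differed from AKI-CKD by 0.70 ± 0.37, 0.94 ± 0.41 and 1.14 ± 0.57 for these genes (SE, adjusted p of at least 0.383, edgeR). Leaving out a mouse gave -1.08 to -0.23 and 0.36 to 1.20 for C1qb, and -1.31 to -0.32 and 0.54 to 1.54 for C1qc, with AKI-CKD mice 1 and 2 at the ends. For C3, C4b, Cfb and Cd55 the first differences were smaller. The first difference was 0.21 ± 0.24 for C3, 0.30 ± 0.28 for C4b, 0.13 ± 0.16 for Cfb and -0.18 ± 0.22 for Cd55 (SE, adjusted p of at least 0.787, edgeR). The second was -0.55 ± 0.24 for C3, -0.09 ± 0.28 for C4b, -0.35 ± 0.16 for Cfb and -0.04 ± 0.22 for Cd55 (SE, adjusted p of at least 0.384, edgeR).

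C3, the central component, had its highest levels outside the PT and the macrophages. It was at 182 CPM in thin limb cells, 113 CPM in stromal cells and 29.4 CPM in macrophages, and all neighbours in its order of classes overlapped between mice. Thin limb cells were highest in 6 of 9 mice and stromal cells in 3 of 9. As the mean of the 9 mice, a C3 UMI was found in 12.01% of thin limb cells (8.35% after thinning; 9.99% of the pooled cells) and in 0.425% of T cells (0% after thinning), at median depths of 2957 and 2335 UMIs. In PT cells, which gave most of the C3 UMIs by their number, the level was 3.76 CPM.

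The thin limb level varied widely between mice. It was at 224, 142 and 78.8 CPM in the Control mice, at 480, 361 and 138 CPM after cisplatin alone and at 118, 68.5 and 23.6 CPM in the EGT group. AKI-CKD and Control overlapped. The levels of AKI-CKD + EGT mice 1, 2 and 3 rested on 22, 37 and 8 C3 UMIs, found in 8.33%, 2.01% and 6.59% of their thin limb cells. The class held 41 to 149 cells per mouse, and no difference between groups was tested in it. The 70 thin limb cells with a C3 UMI were unlike the other 631 of their class: the urea transporter gene Slc14a2 was at 41.7 against 772 CPM and Bst1 at 35.7 against 537 CPM, while Cldn1 was at 77.4 against 5.58 CPM, Stc2 at 217 against 11.2 CPM and Cp, which encodes ceruloplasmin, at 530 against 247 CPM. Cells with C3 therefore carried less of the markers that named the class. Cldn1, the gene of the tight junction protein claudin 1, was also the gene most like C3 over the 13 classes.

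Stromal C3 had its lowest mean in AKI-CKD + EGT mice, and no difference passed the test. The level was at 127, 166 and 89.1 CPM in the Control mice, at 254, 139 and 36.9 CPM after cisplatin alone and at 75.4, 55.3 and 72.4 CPM in the EGT group. The AKI-CKD mice spanned the whole range of the others. The log2 differences were 0.24 ± 0.41 (SE, adjusted p = 0.894) and -1.22 ± 0.44 (SE, unadjusted p = 0.0127, adjusted p = 0.333) in edgeR. With no filter on low counts the second difference was called, at -1.23 (adjusted p = 0.0328, edgeR). Without AKI-CKD mouse 1 the first changed to -0.42 and the second to -0.58. The 56 stromal cells with a C3 UMI carried fibroblast genes, with Dcn (decorin) at 924 against 71.9 CPM and Col1a2 at 632 against 121 CPM in the 671 other cells. The contractile genes were low in them, with Acta2 at 347 against 4111 CPM and Rgs5, a pericyte gene, at 168 against 2464 CPM. Their median depth was 4186 UMIs, against 3018 UMIs in the cells without C3.

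In stromal cells 0 of 2 members tested were called in each comparison, beside 0% of 5000 genes in the first comparison and 0.1% in the second. At an unadjusted p under 0.05 there were 0 and 1, beside 446 and 491 of all genes, and DESeq2 called 0.

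C4b, which encodes the classical pathway partner of C3, was low in every named class, at 2.21 CPM (CD-IC) to 8.98 CPM (stromal cells). Its reads may be shared with the near-identical C4a, and the split between them is uncertain. It was at 7.497 CPM in PT cells, 7.13 CPM in podocytes and 7.00 CPM in thin limb cells. In LOH, DCT, endothelial cells and podocytes C4b stood at 74.5%, 57.4%, 57.5% and 103% of its PT level, where the median PT marker stood at 58.8%, 50.9%, 50.4% and 81.4%, so its UMIs there are not told apart from PT background. In stromal and thin limb cells it stood at 118% and 101%, beside 45.6% and 47.4% for the markers, on 23 and 16 UMIs in all. No neighbours in its order of classes differed beyond the spread between mice. In PT cells it was at 5.69, 5.80 and 6.97 CPM in the Control mice, at 4.76, 9.45 and 8.48 CPM after cisplatin alone and at 5.67, 7.69 and 13.0 CPM in the EGT group. The groups overlapped, with log2 differences of 0.39 ± 0.28 (SE, adjusted p = 0.587) and -0.05 ± 0.28 (SE, adjusted p = 0.948) in edgeR.

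The highest C4b level was outside the named classes. The unnamed cluster of 1700 cells had 43.9 ± 13.7 CPM (SD, n = 9), in a cluster that had Aif1 and Wfdc17 among its leading genes and whose PT marker Slc34a1 was close to the PT level. Of its cells, 702 had a UMI of C1q alone, 128 of C4b alone and 25 of both. The cells with C4b had a median of 4491 UMIs, against 2410 UMIs in those without. The 973 cells without C1q had 65.1 CPM of C4b, those with C1q had 11.7 CPM and PT cells had 7.17 CPM in the pooled sums, and the first was highest in 9 of 9 mice. Psmb8, an interferon-induced gene of the immunoproteasome, was at 130 CPM in the cells without C1q, at 1.07 CPM in PT cells and at 244 CPM in macrophages. Serping1, which encodes the inhibitor of C1, was at 13.3 CPM in them and at 0.178 CPM in PT cells. Slc34a1 was at 3723 CPM, against 4269 CPM in PT cells and 1918 CPM in macrophages. Of the cells without and with C1q, 4.21% and 7.98% were among the cells with the highest doublet scores, against 4.92% of PT cells and 7.37% of macrophages. The cluster was defined from the same cells, so these are descriptions.

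Cfb was the most abundant member by UMIs, with 194364 in all kept cells, and was found in every class. PT cells had 284 CPM and the other named classes 104 to 261 CPM. PT cells were highest in 6 of 9 mice, podocytes in 2 and cycling cells in 1. This spread ran alongside that of other PT transcripts. Outside the PT, the median PT marker stood at 35.3% (CD-IC) to 81.4% (podocytes) of its PT level, and Cfb stood at 36.7% to 91.8% of its own. The ratio of the 2 percentages was 0.988 (T cells) to 1.16 in 11 classes, and 1.46 in cycling cells. In single mice of the 11 classes it ran from 0.726 to 1.75 (both in thin limb cells). The Cfb of those 11 classes was not told apart from PT background, and no test of expression there was made. In cycling cells the ratio was at least 1.16 in every mouse. A Cfb UMI was found in 53.3% of PT cells (23.4% after thinning) and in 29.1% of T cells (10.4%), with median depths of 2865 and 2335 UMIs, so a Cfb UMI by itself did not mark a cell as PT.

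**Figure D4:**
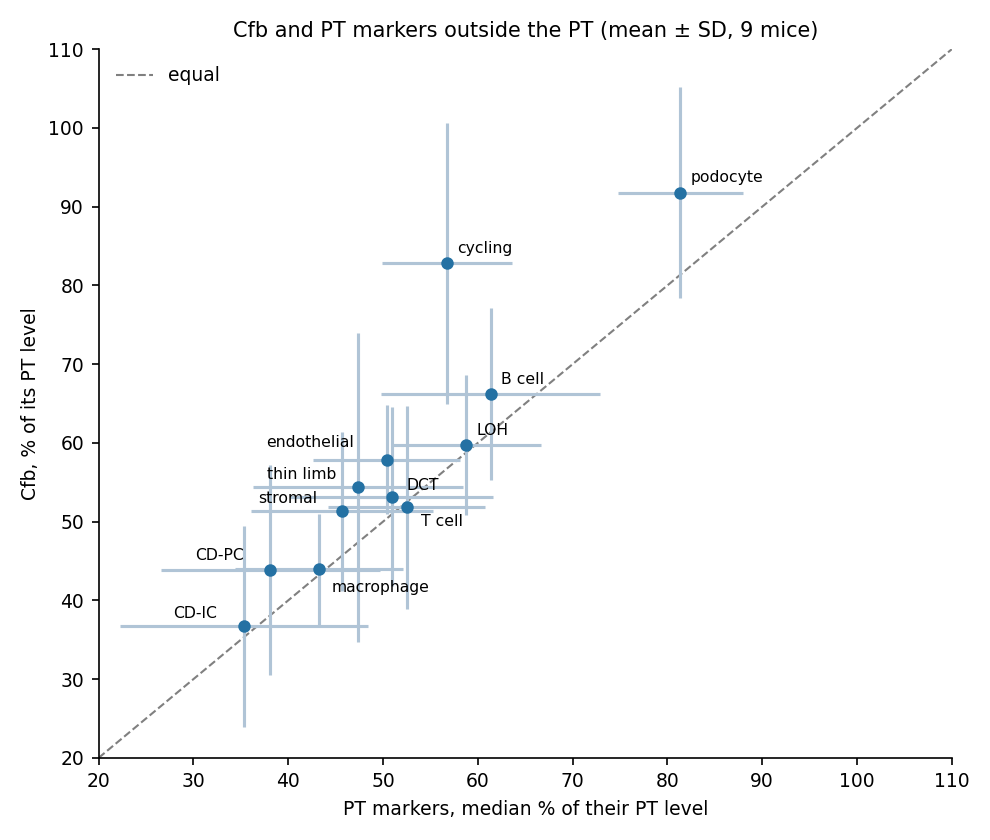
Level of Cfb as % of its PT level (vertical axis) against the median of the PT markers as % of theirs (horizontal axis), for 12 classes, mean ± SD over 9 mice. The dashed line marks equality, and 11 classes lie near it, from CD-IC at 36.7% to podocytes at 91.8%, while cycling cells lie above it at 82.8%.

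In PT cells Cfb was at 278, 267 and 297 CPM in the Control mice, at 283, 279 and 317 CPM after cisplatin alone and at 269, 294 and 276 CPM in the EGT group. The log2 differences were 0.16 ± 0.14 (SE, adjusted p = 0.666) and -0.29 ± 0.14 (SE, adjusted p = 0.352) in edgeR. The group ranges overlapped in plain CPM, and on the TMM scale the AKI-CKD + EGT mice lay below the AKI-CKD mice. In the 6 other populations tested the log2 differences of Cfb were -0.34 to 0.12 in the first comparison and -0.44 to 0.45 in the second, with adjusted p of at least 0.506.

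Cfi, the gene of the factor I protease, was low in all classes. It was at 9.53 CPM in cycling cells, 9.05 CPM in thin limb cells and 6.57 CPM in PT cells, and no neighbours in its order differed beyond the spread between mice. A Cfi UMI was found in 4.45% of cycling cells (1.01% after thinning, median 3950 UMIs) and in 0.722% of T cells (0.528% after thinning). Cfi was also the member with the lowest p between AKI-CKD and Control. In PT cells it was at 4.36, 4.29 and 4.83 CPM in the Control mice, at 5.29, 8.88 and 8.30 CPM after cisplatin alone and at 8.02, 6.44 and 8.70 CPM in the EGT group. All 6 cisplatin-treated mice lay above all Control mice, and the 2 cisplatin groups overlapped. AKI-CKD was higher than Control by 0.83 ± 0.20 on the log2 scale (SE, unadjusted p = 0.0019, adjusted p = 0.283, edgeR), and AKI-CKD + EGT differed from AKI-CKD by -0.19 ± 0.20 (SE, adjusted p = 0.673, edgeR). Leaving out each mouse gave 0.71 to 1.05 for the first difference. DESeq2 called Cfi in this comparison, with a log2 difference of 0.84 (adjusted p = 0.0317), among 205 genes that it called of 30195. Over all kept cells the difference was 0.81 ± 0.21 (SE, adjusted p = 0.457, edgeR) and in LOH cells 1.12 ± 0.51 (SE, unadjusted p = 0.0454, adjusted p = 0.568, edgeR). In DCT cells it was -0.26 ± 0.50 (SE, adjusted p = 0.889, edgeR). Cfi stood at 66.2% of its PT level in LOH cells and 42.9% in DCT cells, where the median PT marker stood at 58.8% and 50.9% of its own, so the Cfi UMIs of these classes are not told apart from PT background.

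In PT cells 0 of 8 members were called in AKI-CKD against Control, beside 0.0446% of 17929 genes, and 0 of 8 in AKI-CKD + EGT against AKI-CKD, beside 0%. At an unadjusted p under 0.05 there were 1 and 0 in edgeR, beside 2032 and 2749 of all genes, and DESeq2 called 1 and 0. On the TMM scale 1 member, Cfi, did not overlap in the first comparison, beside 21.1% of all genes, and 1, Cfb, in the second, beside 21.2%.

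Along the proximal tubule the members took opposite sides. The 12 PT clusters were split by which of 2 markers was among those raised 1.5-fold in them. Slc5a2 (the glucose transporter SGLT2 of the early segment) was raised in 5 clusters, holding 80010 cells. Slc7a13 (an amino acid transporter of the late segment) was raised in 7, holding 75141 cells. Cfi was at 9.81 ± 2.38 CPM in the first set and 3.22 ± 1.25 CPM in the second (SD, n = 9), 3.05-fold higher in Slc5a2 clusters, and C4b at 9.74 ± 3.90 against 5.22 ± 1.25 CPM, each higher in 9 of 9 mice. Cd55 ran the other way, at 2.85 ± 0.570 against 10.6 ± 1.88 CPM, 3.72-fold higher in Slc7a13 clusters in 9 of 9 mice. Cfb was at 259 ± 17.2 against 309 ± 20.02 CPM, also lower in Slc5a2 clusters in 9 of 9 mice. C3 was at 3.55 and 4.02 CPM and was higher in Slc5a2 clusters in 3 of 9 mice. The sets were cut from clusters of these cells, so no test is given.

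In both sets Control mice had the lowest mean level of Cfi, and the order of the other two groups differed. In Slc5a2 clusters its level was 7.56 ± 1.498, 10.4 ± 2.50 and 11.5 ± 1.34 CPM in Control, AKI-CKD and AKI-CKD + EGT mice, and in Slc7a13 clusters 1.85 ± 0.198, 4.22 ± 1.04 and 3.57 ± 0.762 CPM (SD, n = 3). In Slc7a13 clusters every cisplatin-treated mouse was above every Control mouse, with 1.66 to 2.06 CPM in Control and at least 3.00 CPM in the others. Over all PT cells 21.1% of genes did not overlap between AKI-CKD and Control mice on the TMM scale, and the share within these clusters was not counted. Cfi stood in Slc7a13 clusters at 0.328 of its level in Slc5a2 clusters, and background RNA from the latter was not measured there. In Slc5a2 clusters AKI-CKD and Control overlapped. The Slc5a2 clusters made up 49.5% ± 3.06, 53.3% ± 2.59 and 52.5% ± 2.11 of the PT cells of the 3 groups (SD, n = 3).

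**Figure D5:**
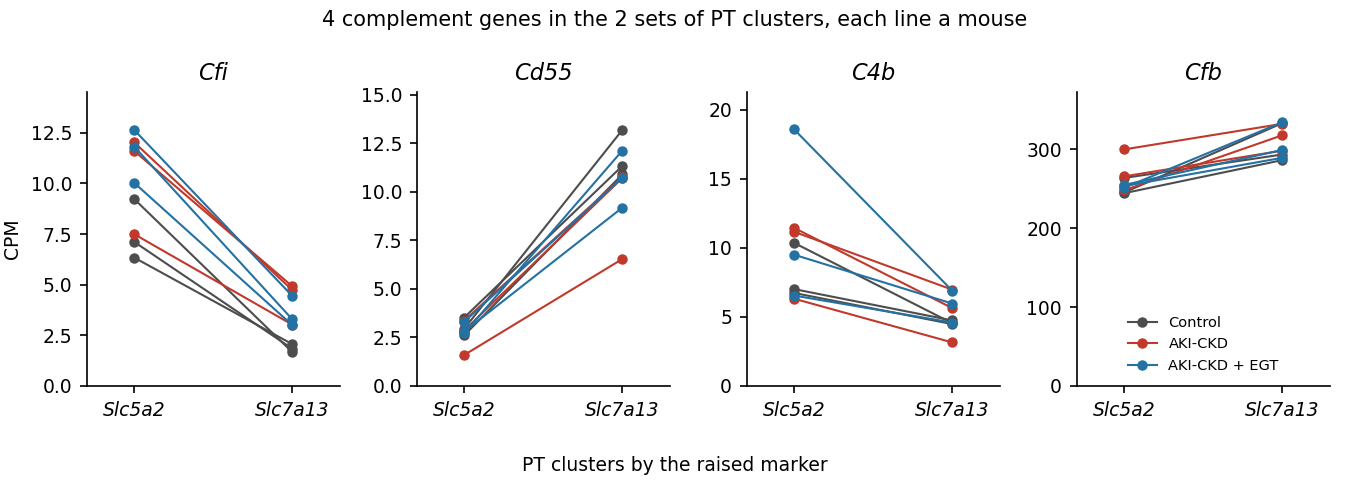
Levels (CPM, linear axis from 0) of 4 complement genes in the PT clusters with Slc5a2 raised and in those with Slc7a13 raised, each line a mouse coloured by group. Cfi and C4b drop from left to right in 9 of 9 mice, and Cd55 and Cfb climb in 9 of 9.

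Cd55, the membrane regulator, was highest in B cells in 9 of 9 mice. Its reads may be shared with the neighbouring copy Cd55b. The level was 161 CPM in B cells, 44.3 CPM in podocytes, 14.5 CPM in CD-IC cells and 12.2 CPM in T cells. B cells stood 3.64-fold over podocytes with no overlap between mice, and podocytes overlapped with CD-IC cells. In B cells it was at 89.1, 174 and 158 CPM in the Control mice, at 161, 215 and 122 CPM after cisplatin alone and at 206, 136 and 190 CPM in the EGT group, which overlapped. A Cd55 UMI was found in 33.4% of B cells (16.9% after thinning, median 1947 UMIs) and in 1.57% of macrophages (0.856% after thinning, median 2653 UMIs).

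B cells with and without a Cd55 UMI had Cd79a at 1171 and 1186 CPM and Ighm at 1943 and 2020 CPM. In podocytes the level of another complement regulator differed by this split. The 64 podocytes with a Cd55 UMI had Cd59a, which encodes a membrane inhibitor of the terminal pore, at 1388 CPM against 135 CPM in the 1033 others. In PT cells Cd55 was at 7.14, 7.03 and 8.91 CPM in the Control mice, at 6.72, 3.61 and 7.14 CPM after cisplatin alone and at 6.61, 7.52 and 5.87 CPM in the EGT group. AKI-CKD mouse 2 was the lowest, and the log2 differences were -0.30 ± 0.25 (SE, adjusted p = 0.640) and -0.03 ± 0.25 (SE, adjusted p = 0.973) in edgeR.

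In the remaining populations no member was called either. In LOH cells 3 members were tested, beside 0% and 0.0176% of 11380 genes called in the first and second comparison, and 1 and 0 had an unadjusted p under 0.05, beside 990 and 1211 of all genes. In DCT cells 6 members were tested, beside 0% and 0% of 11936 genes, and 0 and 1 had such a p, beside 1141 and 1466 of all genes. This was Cfi, higher in the EGT group than in AKI-CKD by 0.99 ± 0.45 (SE, adjusted p = 0.402, edgeR), with the Cfi of DCT cells near PT background. In CD-PC cells Cfb alone was tested, beside 0% and 0% of 9489 genes. In endothelial cells 3 members were tested, beside 0% and 0.00963% of 10386 genes, and in both these populations 0 members had an unadjusted p under 0.05. DESeq2 called 0 members in each of these 4 populations. Members with too few UMIs in a population were left out by edgeR's filter, so C1q and C3ar1 had no test in most tubule classes, and C4b and Cd55 none in macrophages.

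The other genes of the pathway came from a list of 43 further complement genes, of which 28 were tested over all kept cells, 23 in PT cells and 11 in macrophages, and 0 were called in any population. In macrophages 4 of 11 had an unadjusted p under 0.05 in the first comparison, beside 614 of all 7245 genes, and 3 of 11 in the second, beside 629. Cfp, the properdin gene, was at 33.5 CPM in Control, 78.1 CPM in AKI-CKD and 47.8 CPM in AKI-CKD + EGT macrophages. Its log2 differences were 1.34 ± 0.30 (SE, unadjusted p = 0.000416, adjusted p = 0.215, edgeR) and -0.83 ± 0.29 (SE, unadjusted p = 0.0120, adjusted p = 0.494, edgeR). This order is opposite to that of the share of macrophages with C1q, the cells that carried less Cfp. The part of that share in the Cfp differences was not tested.

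C5ar1, the C5a receptor gene, was at 44.3 CPM in Control macrophages and at 19.7 CPM after cisplatin alone (log2 difference -0.97 ± 0.40 SE, adjusted p = 0.560, edgeR). C2, the classical convertase partner of C4b and a neighbour of Cfb in the genome, was higher in AKI-CKD than in Control macrophages by 1.03 ± 0.48 (SE, adjusted p = 0.586, edgeR) and in PT cells by 0.51 ± 0.19 (SE, adjusted p = 0.383, edgeR). Cd93 was higher in the EGT group than in AKI-CKD macrophages by 1.53 ± 0.58 (SE, adjusted p = 0.511, edgeR). None of these passed the test.

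Clu, which encodes clusterin, an inhibitor of pore assembly that is also known as a tubule injury gene, was at 901 CPM in the CD-PC cells of Control mice and at 1958 CPM after cisplatin alone. The log2 difference was 1.20 ± 0.29 (SE, unadjusted p = 0.000743, adjusted p = 0.123, edgeR). In endothelial cells Clu was higher in AKI-CKD than in Control by 1.00 ± 0.24 (SE, adjusted p = 0.358, edgeR). In PT cells it was higher in the EGT group than in AKI-CKD by 1.15 ± 0.36 (SE, adjusted p = 0.235, edgeR). Cd59b, a membrane inhibitor of the pore, was higher in AKI-CKD than in Control by 1.01 ± 0.25 in DCT cells and 0.79 ± 0.22 in LOH cells (SE, adjusted p = 0.413 and 0.478, edgeR). C8g, which encodes a chain of the terminal component C8, differed between AKI-CKD and Control LOH cells by -1.08 ± 0.32 (SE, adjusted p = 0.484, edgeR).

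The genes most like each member over the 13 class means were found among 12413 genes with at least 10 CPM in a class. The points share the cells and depth of each class, and the values of r describe these 13 points alone. C1qa was most like C1qc and C1qb, with Pearson's r = 0.991 and 0.990, followed by Ppfia4. C3ar1 was most like Cd300ld (r = 0.993), and Cfb like Calml4 (r = 0.987). C3 was most like Cldn1 (r = 0.898) and Stc2 (r = 0.873), both of which were raised in the thin limb cells with a C3 UMI. The genes nearest to C4b, Cfi and Cd55 were Psmd6 (r = 0.889), Steap2 (r = 0.907) and Gm45745 (r = 0.867), in that order.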

How the data were processed

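Part of a kidney of each of 9 mice was dissociated and sequenced as a droplet single-cell library (DNBelab C-TaiM4). The authors deposited, for each mouse, a matrix of UMI counts with gene symbols in rows and cells in columns, written by PISA per the file headers and not normalized. GRCm39 is named in the submitters' processing notes, and the aligner and annotation are not given in the sources used here. No library was pooled, and the lowest barcode held 1000 UMIs. Cell names are running numbers, of which 62337 of 98290 occur in more than 1 library, and 0 cells had an identical profile in 2 libraries.

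The members and all gene lists were chosen with earlier results of these data known. A cell was kept if it had 1000 or more UMIs and 500 or more genes and if no more than 15% of its UMIs were mitochondrial, which are the limits of the study's methods. The number left, 196925, is not the number given there, and the cause was not tested. Counts were log-normalized, and 2000 variable genes were taken without complement, mitochondrial, ribosomal protein and nuclear respiratory chain subunit genes. An implementation of Harmony removed library differences from 30 principal components, which were clustered with scanpy 1.11.5 (20 neighbours, Leiden resolution 1.1). A cluster took the name of a class with at least 3 markers raised 1.5-fold. The fold had been planned as 2 and was changed after the clusters were seen. Haemoglobin-led clusters were left out of the comparison, so the classes are rebuilt and can differ from the study's. The doublet scores gave 0 or 1 calls per library, so no cell was removed and the 6% that scored highest were left out in an alternative.

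UMIs were summed per mouse and class and tested with edgeR 4.0.16 (filterByExpr, TMM, quasi-likelihood F test) in a fit of the 9 mice, with Benjamini-Hochberg adjustment across the genes tested in each population and a call at an adjusted p under 0.05. Classes needed 20 cells in every mouse. The 8 populations tested were all kept cells, PT, LOH, DCT, CD-PC, macrophages, endothelial and stromal cells. Shares were compared by exact two-sided permutation over mice. Limits for 0 counts use 3 counts and cover counting error only. Named members are those of the rule in all kept cells and in the tested class where each is highest among those in which it passed edgeR's filter. For C4b and Cd55 this was PT, as they had no test in stromal and CD-PC cells, their highest tested classes. Other list genes are drawn from the 3 with the largest log2 difference in a comparison. Only genes whose mice do not overlap and whose mean is at least 10 CPM were considered, so their lack of overlap was set by this choice. Splits of cells by a UMI, the PT sets and the unnamed cluster were chosen after values were seen. Reads of C4b and C4a, and of Cd55 and Cd55b, may be shared. Some genes are not reported here. Alternatives are given at the end. The edgeR step was tested on simulated counts.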

Additional observations from a re-analysis of the deposited data

How the results depend on the processing

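The number of members called (0 in each of 16 tests) was within 1.5 times under 240 of 242 alternatives, and rose to 1 under DESeq2 in PT cells, AKI-CKD against Control (Cfi, log2 difference 0.84), and to 1 with no filter on low counts in stromal cells, AKI-CKD + EGT against AKI-CKD (C3, -1.23). Of 544 alternative log2 differences over 36 results, 514 kept direction and call, 2 gained the call just named and 28 reversed. In macrophages, AKI-CKD against Control, the reversed values without Harmony were 0.31 (C1qa), 0.30 (C1qb), 0.15 (C1qc) and 0.59 (C3ar1), and with complement genes among the variable genes 0.21, 0.13, 0.0077 and 0.20. C1qb in AKI-CKD + EGT against AKI-CKD macrophages was -0.23 without Harmony.

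Leaving out each mouse gave ranges that crossed 0 for C1qb in macrophages (-0.73 to 0.071 in AKI-CKD against Control, -0.18 to 0.60 in AKI-CKD + EGT against AKI-CKD), C3ar1 in AKI-CKD against Control (-0.45 to 0.078 in macrophages, -0.96 to 0.022 in all kept cells), stromal C3 in AKI-CKD against Control (-0.42 to 0.63), C4b in AKI-CKD + EGT against AKI-CKD (-0.35 to 0.090 in all kept cells, -0.32 to 0.13 in PT cells), Cfb in all kept cells, AKI-CKD against Control (-0.023 to 0.23), and Cd55 (-0.38 to 0.021 in all kept cells, AKI-CKD against Control, and -0.24 to 0.16 and -0.29 to 0.18 in all kept and PT cells, AKI-CKD + EGT against AKI-CKD). No mouse left out led to a call.

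Replicate numbers did not pair the mice: same-numbered mice of 2 groups correlated at -0.43 to 0.33 in PT cells. With the replicate block Cd55 in PT cells, AKI-CKD + EGT against AKI-CKD, became 0.015, and no call changed. The difference in the macrophage share kept its sign in 20 of 20 alternatives. Counting all UMIs of a cell in place of 1000 moved the shares with a UMI to 3.36% (C4b, stromal), 53.3% (Cfb, PT), 4.45% (Cfi, cycling), 33.4% (Cd55, B cells) and 15.3% (C3ar1, macrophages), by construction of the thinning. The setting with the unnamed cluster counted as macrophages was chosen after seeing the data. With 87 to 289 macrophages and 40 or more stromal cells per mouse, cell numbers limit the precision in these classes.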
